A study of Homo sapiens with 6 samples.

Results

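Small heat shock proteins, their partner BAG3 and the further chaperones clusterin and SERPINH1 were followed in HaCaT keratinocytes under negative pressure. The genes are HSPB1, HSPB8, CRYAB, HSPB6, HSPB2, HSPB3, HSPB7, BAG3, CLU and SERPINH1. Every Affymetrix probe set whose platform annotation named 1 of these 10 genes alone was taken and kept apart, which gave 16 of the 54613 probe sets tested. HaCaT is a keratinocyte line from human skin that became immortal without an added gene. In 1 group, 3 cultures spent 12 h in an incubator at a negative pressure gradient of 125 mmHg (negative pressure replicates 1 to 3). In the other, 3 control cultures spent 12 h at ambient pressure (ambient replicates 1 to 3). All were grown in DMEM with serum and antibiotics. All cultures are of this 1 line, which limits it as a model of skin, and the titles call them biological replicates. Values are log2 RMA values, so a difference of 1 is a doubling of signal. With 3 arrays per group, the precision of each value is limited by their number.

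Small heat shock proteins share an alpha-crystallin domain and bind unfolding proteins without using ATP, holding them in a state that ATP-driven HSP70 machines can refold or pass on for degradation. HSPB1 and CRYAB also bind actin and intermediate filaments, and the keratinocyte depends on its filaments for strength. BAG3 joins HSPB8 to HSP70 and steers bound clients to autophagy. Clusterin chaperones proteins mainly outside the cell, and SERPINH1 (HSP47) chaperones procollagen in the endoplasmic reticulum. Several of these genes are targets of heat shock factors, which bind inverted repeats of the unit GAA.

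The promoters of 3 of the 4 genes that were higher on the array, HSPB1, HSPB8 and SERPINH1, are shown first. HSPB6 and BAG3 were not called higher, and their promoters follow. Each is the stretch of 250 bases that ends just before the RefSeq gene start (build GRCh38.p14), and capitals mark matches to GAANNTTC or TTCNNGAA, the pair of facing units of a heat shock element. The HSPB1 stretch is chr7:76302423-76302672, plus strand, that of HSPB8 is chr12:119178681-119178930, plus strand and that of SERPINH1, at the upstream start of the 2 listed for it, is chr11:75562003-75562252, plus strand. The HSPB6 stretch is chr19:35757030-35757279, minus strand, and that of BAG3 is chr10:119651130-119651379, plus strand.
HSPB1: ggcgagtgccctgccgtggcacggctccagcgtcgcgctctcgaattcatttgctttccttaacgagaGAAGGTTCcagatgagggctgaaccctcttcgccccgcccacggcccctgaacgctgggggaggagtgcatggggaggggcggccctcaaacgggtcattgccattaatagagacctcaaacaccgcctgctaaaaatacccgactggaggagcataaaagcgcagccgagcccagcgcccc
HSPB8: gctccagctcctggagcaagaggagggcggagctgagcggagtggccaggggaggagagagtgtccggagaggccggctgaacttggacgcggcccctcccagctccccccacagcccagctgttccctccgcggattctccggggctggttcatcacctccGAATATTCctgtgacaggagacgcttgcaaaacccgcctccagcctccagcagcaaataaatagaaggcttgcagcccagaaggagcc
SERPINH1: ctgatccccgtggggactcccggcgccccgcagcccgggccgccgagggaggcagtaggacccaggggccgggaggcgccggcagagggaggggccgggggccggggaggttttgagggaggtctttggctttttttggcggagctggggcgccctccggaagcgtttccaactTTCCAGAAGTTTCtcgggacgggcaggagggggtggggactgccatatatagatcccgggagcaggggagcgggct
HSPB6: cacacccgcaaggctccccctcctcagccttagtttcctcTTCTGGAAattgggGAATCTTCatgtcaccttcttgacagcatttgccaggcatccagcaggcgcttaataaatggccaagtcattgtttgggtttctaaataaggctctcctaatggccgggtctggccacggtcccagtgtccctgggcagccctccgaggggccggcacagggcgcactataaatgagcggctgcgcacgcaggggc
BAG3: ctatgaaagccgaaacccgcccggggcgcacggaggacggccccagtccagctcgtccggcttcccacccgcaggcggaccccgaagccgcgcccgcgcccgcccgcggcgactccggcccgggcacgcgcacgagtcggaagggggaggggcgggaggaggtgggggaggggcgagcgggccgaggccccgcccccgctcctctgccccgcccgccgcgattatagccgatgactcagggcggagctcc

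Windows of 300 bases, reaching 50 bases past the start, were in the RefSeq table for 7 of the 10 genes and were searched. Both motifs read the same on the opposite strand, and they can overlap. HSPB1 had 1 match, GAAGGTTC, whose first base lies 182 bases upstream of the start. HSPB8 had GAATATTC 88 bases upstream and a further match just past the start. SERPINH1 had a match of 3 units in a row, TTCCAGAAGTTTC, 76 bases upstream of the upstream start, and no match at the other start. HSPB6 had 2 matches and HSPB3 had 1, whereas the windows of HSPB7 and BAG3 had none. A pair of units was found in 13.5% of all 35116 windows, and a run of 3 such units, each facing the next with the same spacing, in 0.49% of them. A match describes the letters only. Only exact matches within these windows were counted, so a window without a match does not show that the gene lacks a heat shock element. CLU, CRYAB and HSPB2 were not in this search.

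**Figure D1:**
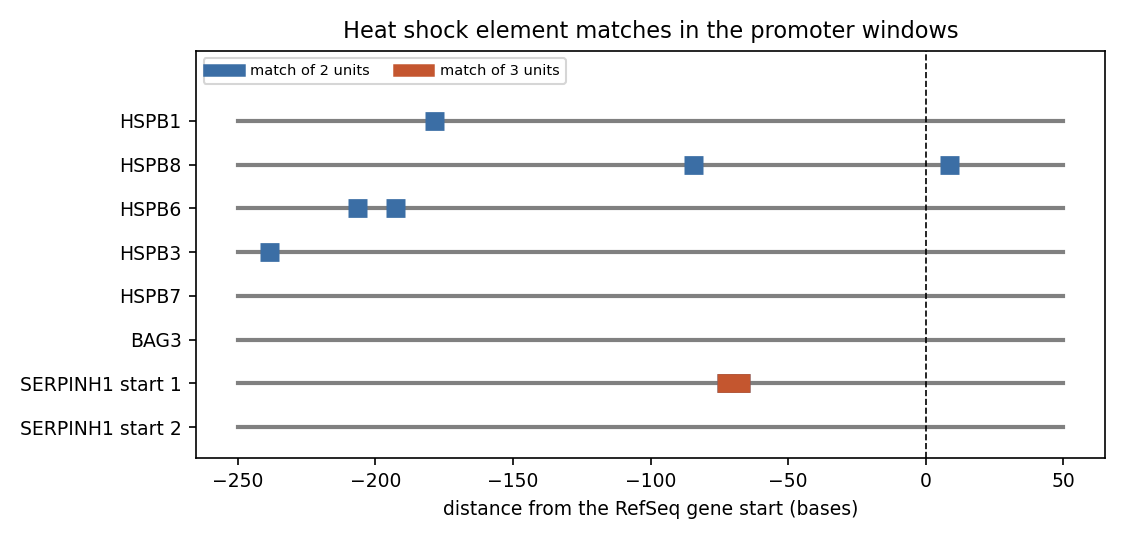
Matches to the heat shock element in the promoter windows of 7 genes, by distance from the RefSeq gene start in bases; blue bars are matches of 2 units and the orange bar a match of 3 units, drawn to scale. HSPB1, HSPB8, HSPB6, HSPB3 and the upstream start of SERPINH1 hold a match, and HSPB7 and BAG3 hold none.

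Of the series as a whole, the replicate 3 arrays of both groups stood apart on the first principal component (40.4% of the variance; 40.0 and 46.8 against -24.4 to -14.8 for the other 4 arrays). The keratinocyte markers KRT14, KRT5, CDH1, SFN and DSG3 had means between 8.35 and 12.5 and did not pass the test (DSG3 was higher with the replicate block, limma adjusted p = 0.0383), while the 5 measured markers of striated muscle, where HSPB2, HSPB3, HSPB6 and HSPB7 are best known, had means between 2.52 and 4.35 and none passed the test. The array medians were 3.81 to 3.89. Markers of melanocytes (3.25 to 3.95) and leukocytes (2.30 to 3.85) were also at that level and did not pass the test. The endothelial markers PECAM1 and VWF did not pass either, and CDH5 was lower under negative pressure (4.81 to 4.01). This call was just under the threshold (limma adjusted p = 0.0492), and the mean of CDH5, 4.41, was not far above the array medians. The fibroblast markers lay between 1.80 and 6.78 and did not pass. The 6.78 was COL1A1 on 217430_x_at alone, and the next marker, DCN, stood at 4.41. The other COL1A1 probe sets had means between 1.79 and 4.17. In bulk RNA, a change in the number of cells that hold a transcript and a change per cell cannot be told apart.

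The genes were chosen on the difference between these same negative pressure and ambient arrays, which was known beforehand. Their differences are therefore a description, given with the spread and without printing a p for each. Counts past a threshold are given as description too and do not test the genes as a list. HSPB1, HSPB8, CLU and SERPINH1 were higher under negative pressure, by 1.95-fold to 2.41-fold on their brightest probe sets, while BAG3, CRYAB, HSPB2, HSPB3, HSPB6 and HSPB7 differed by less than 0.17 on the log2 scale. In limma over all probe sets, 5 of the 16 were higher at an adjusted p under 0.05 and none was lower; at an unadjusted p under 0.05, 6 were higher and 0 lower, where limma gave 9.86% of all probe sets such a p (5.55% higher and 4.31% lower). Over all 54613 probe sets, 0.48% passed in either direction, 0.276% as higher and 0.203% as lower; the difference that chose the genes is the one counted, so nothing is read from the excess. The median difference over the 10 genes, each by its brightest probe set, was 0.16, against 0.01 over all 19775 genes measured. With 1 probe set per gene, 4 of the 10 genes passed, where 0.92% of all genes did.

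The 5 stayed past the threshold when either replicate 3 array, or both, were left out. Without ambient replicate 1, ambient replicate 2, negative pressure replicate 1 or negative pressure replicate 2, none of the 16 passed over all probe sets, while limma gave 6 an unadjusted p under 0.05 each time. The differences of the 5 then ran from 0.92 to 1.38. In these fits only 6, 1, 8 and 1 of all probe sets passed, in the same order. Without ambient replicate 3 the count was 98, and without negative pressure replicate 3 it was 235. The loss of calls was therefore not particular to these genes. The median over the 10 genes was 0.31 when negative pressure replicate 3 was left out, and 0.10 when replicate 2 of that group was.

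**Figure D2:**
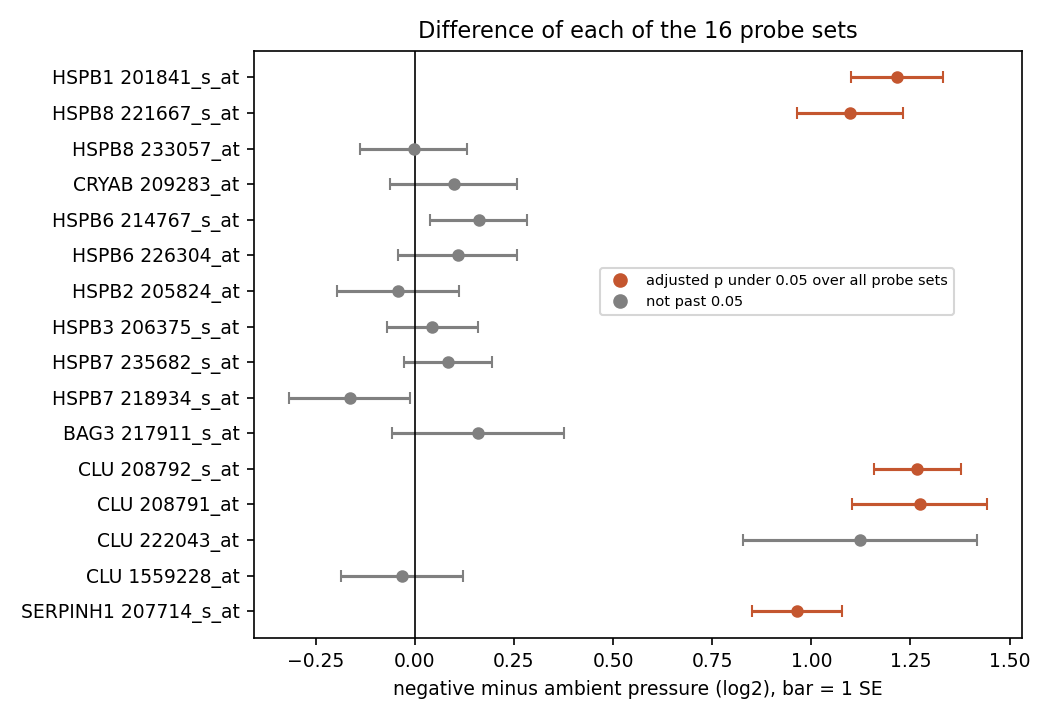
Log2 difference (negative minus ambient pressure) for each of the 16 probe sets, with bars of 1 standard error from limma (n = 3 arrays per group); orange marks an adjusted p under 0.05 over all probe sets. Orange points lie at 0.96 or above, the grey point of CLU 222043_at lies at 1.12, and the other grey points lie between -0.16 and 0.16.

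Among the small heat shock proteins, HSPB1 (HSP27), which guards actin filaments and is phosphorylated downstream of p38, was measured by 1 probe set, 201841_s_at. It read 10.25, 10.24 and 10.11 on ambient replicates 1 to 3 and 11.39, 11.32 and 11.53 on the negative pressure replicates. All negative pressure arrays lay above all ambient arrays, with a gap of 1.07 between the nearest values. The difference was 1.22 ± 0.12 (SE, n = 3 per group), a ratio of 2.32, and 32 of the 54613 probe sets had a larger rise. Within replicate numbers the differences were 1.14, 1.08 and 1.43, the largest in replicate 3. RefSeq lists the pseudogenes HSPB1P1 and HSPB1P2, and whether their transcripts bind this probe set was not tested.

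HSPB8 (HSP22), the small heat shock protein that works with BAG3, had 2 probe sets that disagreed. On 221667_s_at the ambient arrays read 6.63, 6.64 and 6.29 and the negative pressure arrays 7.62, 7.70 and 7.52. The groups did not overlap, and replicate 3 was the lowest array of each. The difference was 1.10 ± 0.13 (SE, n = 3 per group), a ratio of 2.14. On 233057_at the ambient arrays read 4.05, 4.41 and 4.21 and the negative pressure arrays 4.37, 4.11 and 4.18, with overlapping groups and a difference of -0.00 ± 0.13. The mean level of 233057_at was 4.22, near the array medians, against 7.07 for 221667_s_at, which limits what its difference can show. The mean of both probe sets gave 0.55 for the gene and did not pass the threshold.

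CRYAB (alpha-B-crystallin), a small heat shock protein of lens, heart and muscle that binds desmin, read 3.24, 3.46 and 3.79 at ambient and 3.71, 3.65 and 3.42 under negative pressure. The groups overlapped, and replicate 3 was the highest ambient array and the lowest negative pressure array. The difference was 0.10 ± 0.16 (SE; 95% interval -0.26 to 0.46), and it was 0.33 without both replicate 3 arrays. HSPB2, a muscle member whose gene lies within the span that RefSeq lists for CRYAB, read 3.85, 3.81 and 4.11 at ambient and 3.72, 3.76 and 4.17 under negative pressure. Its groups overlapped, with replicate 3 highest in both, and its 95% interval ran from -0.39 to 0.30. A further probe set, 238805_at, names HSPB2 together with C11orf52 and their readthrough transcript, so it counts for no member; its difference was -0.06 ± 0.11.

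HSPB6 (HSP20), a small heat shock protein of smooth and striated muscle, read 3.31, 3.42 and 3.23 at ambient and 3.49, 3.61 and 3.34 under negative pressure on 214767_s_at, with overlapping groups and a difference of 0.16 ± 0.12. Its second probe set stood at 0.11 ± 0.15. HSPB3, another muscle member, read 2.84 to 2.97 at ambient and 2.83 to 3.01 under negative pressure, a difference of 0.04 ± 0.11 with overlapping groups. HSPB7, a cardiac member, had probe sets of opposite sign. On 235682_s_at it read 3.47, 3.55 and 3.54 at ambient and 3.55, 3.55 and 3.71 under negative pressure. These groups did not overlap, but the nearest values were 0.0045 apart, and the difference was 0.08 ± 0.11. On 218934_s_at it stood at -0.16 ± 0.15. All 7 probe sets of CRYAB, HSPB2, HSPB3, HSPB6 and HSPB7 had means between 2.42 and 3.90, near or below the array medians. Detection calls were not used here, and signals this low limit what a difference can show.

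**Figure D3:**
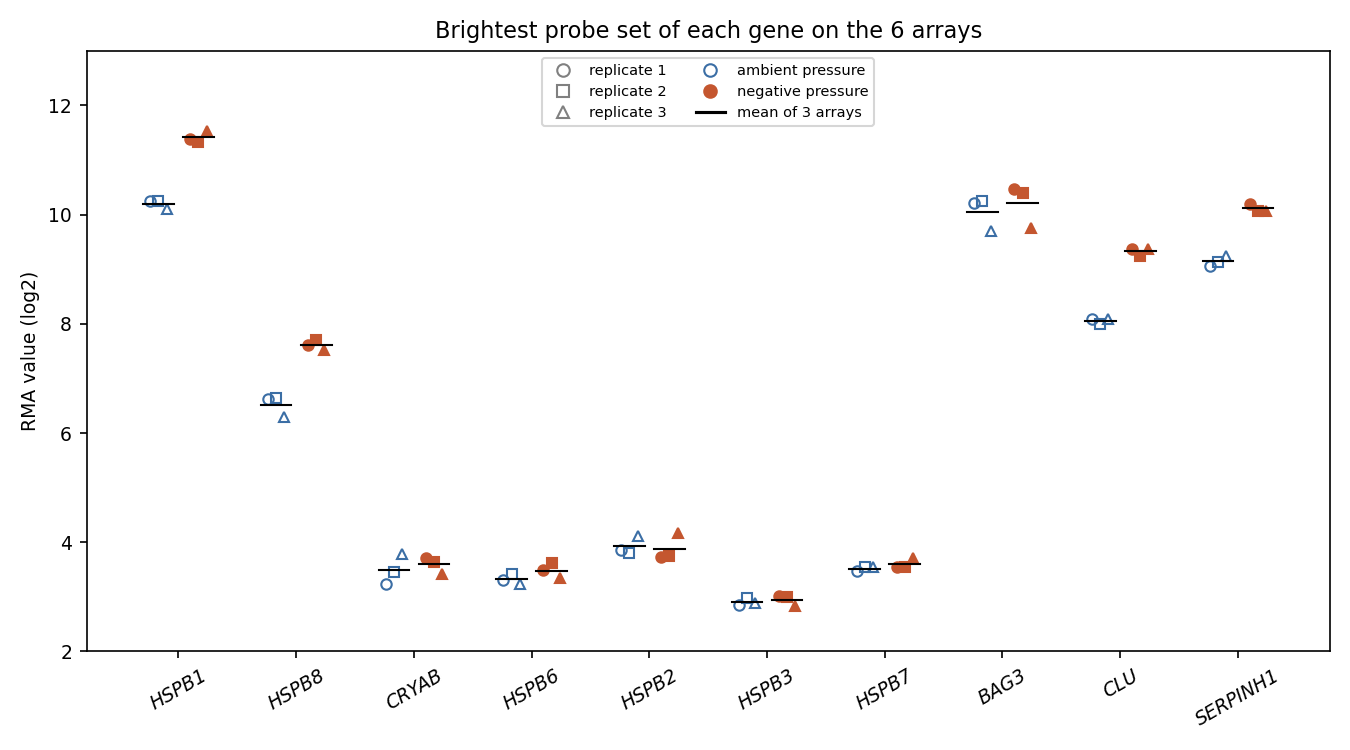
RMA value (log2) of the brightest probe set of each of the 10 genes on every array; open blue symbols are the 3 ambient arrays, filled orange symbols the 3 negative pressure arrays, the symbol shape gives the replicate number and the bar the group mean. The groups of HSPB1, HSPB8, CLU and SERPINH1 are separated by 0.82 or more, and the replicate 3 arrays of BAG3 lie below the other arrays of both groups. Heights are not comparable between genes, since probes differ in how strongly they bind.

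BAG3, the HSP70 co-chaperone that carries small heat shock proteins and their clients to autophagy, read 10.21, 10.24 and 9.69 at ambient and 10.48, 10.39 and 9.76 under negative pressure. The groups overlapped, and the replicate 3 array was the lowest of both, low by 0.53 and 0.67 against the mean of replicates 1 and 2. The difference was 0.16 ± 0.22 (SE; 95% interval -0.33 to 0.65), and within replicate numbers it was 0.27, 0.14 and 0.07. The gap between the 3' and 5' control probe sets of ACTB, a sign of RNA quality, was also smaller on the replicate 3 arrays, 0.27 at ambient and 0.42 under negative pressure, against 0.64 to 0.85 on the other arrays. The same gap for GAPDH did not set the replicate 3 arrays apart, at 0.155 against 0.176 and 0.213 at ambient and at 0.0862, between 0.0533 and 0.164, under negative pressure. The part of RNA quality in the level of BAG3 was not tested. With the replicate number as a block BAG3 did not pass either, and the same 5 probe sets passed as without the block, while the count over all probe sets went from 262 to 1242 (2.27%).

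CLU, which encodes clusterin, had 4 probe sets. On 208792_s_at it read 8.08, 8.00 and 8.10 at ambient and 9.37, 9.24 and 9.37 under negative pressure, a difference of 1.27 ± 0.11 (SE, n = 3 per group) and a ratio of 2.41. The pairs of the same number gave 1.29, 1.24 and 1.27, and the 6 values of this probe set showed no shift on the replicate 3 arrays beyond 0.07. On 208791_at the ambient arrays read 7.68, 7.72 and 8.03 and the negative pressure arrays 8.96, 8.86 and 9.42. The difference was again 1.27, with a larger error (0.17), and here replicate 3 was the highest array of both groups.

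The third CLU probe set, 222043_at, read 3.53, 3.73 and 3.02 at ambient and 4.41, 4.01 and 5.23 under negative pressure. Its groups did not overlap, but its difference of 1.12 ± 0.30 did not pass the threshold, and the differences within replicate numbers ran from 0.28 in replicate 2 to 2.21 in replicate 3. It was 0.58 without both replicate 3 arrays. The fourth, 1559228_at, read 2.71 to 3.22 on the 6 arrays, with overlapping groups and a difference of -0.03 ± 0.15. The mean of the 4 gave 0.91 for CLU and stayed past the threshold.

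**Figure D4:**
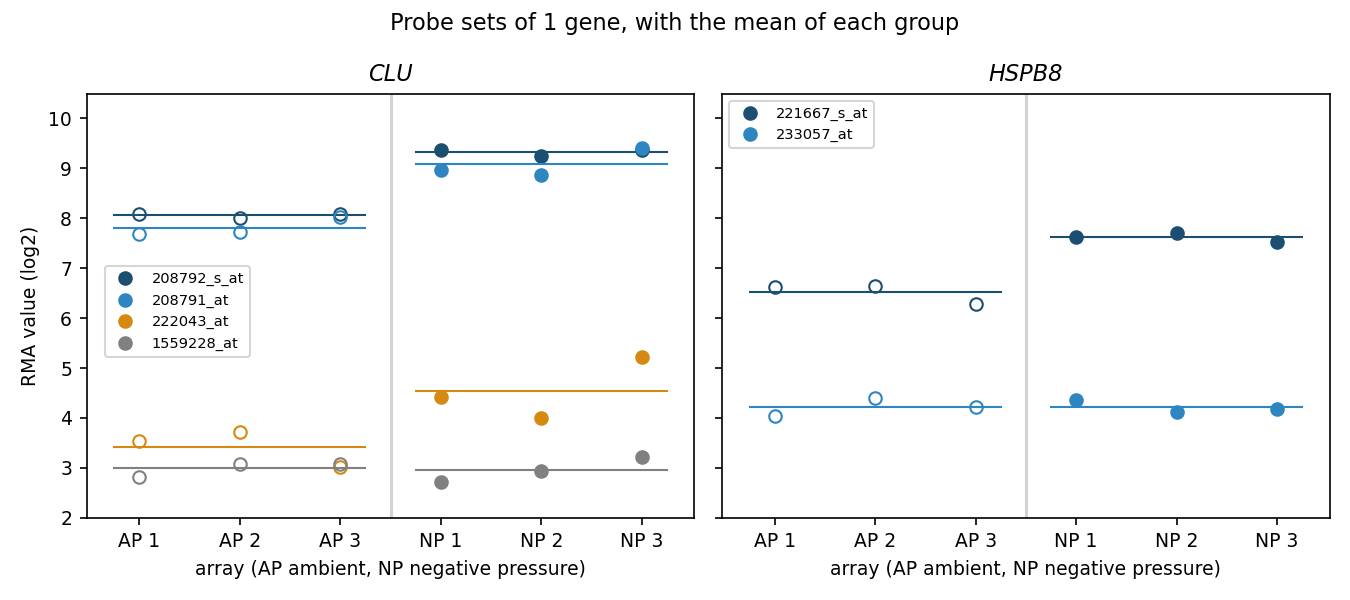
RMA value (log2) of the 4 CLU and the 2 HSPB8 probe sets on each array (open, ambient; filled, negative pressure), with lines at the group means. Both bright CLU probe sets differ by 1.27 between the groups, the dim 222043_at spreads most on replicate 3, and only 1 of the 2 HSPB8 probe sets differs between the groups.

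SERPINH1, the collagen chaperone HSP47, read 9.06, 9.14 and 9.24 at ambient and 10.20, 10.07 and 10.07 under negative pressure on its 1 probe set, 207714_s_at. The groups were 0.82 apart at their nearest values. The difference was 0.96 ± 0.11 (SE, n = 3 per group), a ratio of 1.95, with 1.14, 0.93 and 0.82 within replicate numbers. RefSeq lists a pseudogene, SERPINH1P1, whose part in this signal was not tested.

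Over all probe sets, 15.0% had groups that did not overlap, 8.44% with negative pressure above and 6.56% below. Of the 16 here, 7 had negative pressure above and 0 below, the 5 past the threshold, the dim 222043_at of CLU and 235682_s_at of HSPB7.

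Genes around these chaperones were listed by their function, with earlier results of these data known. Of 46 probe sets of heat shock factors and HSF1 targets (18 genes), 1 rose, none fell, and 45 did not pass; at an unadjusted p under 0.05 in limma, 24 were higher and 0 lower, where 5.55% and 4.31% of all probe sets were. The median was 0.28, against 0.01 over all probe sets, and the brightest probe set was above 0 for 18 of 18 genes, against 53.4% of all genes. HSF2, HSPA1A, HSPA1B, HSPA8 and AHSA1 were listed too, but no probe set named them alone, so they are not among the 18. The 1 that rose was HSPA4L, an HSP110-type nucleotide exchange factor of HSP70, which went from 6.38, 6.34 and 5.87 to 7.04, 7.25 and 7.52 (1.07 ± 0.18, SE; limma adjusted p = 0.0426). It passed in none of the fits that left out 1 array (adjusted p = 0.0695 to 0.19) and not with array median centring (adjusted p = 0.052). The other HSPA4L probe set, 1556194_a_at, stood at 0.63 ± 0.18 and did not pass. With the replicate block 7 probe sets of the list were higher and none lower, where 2.27% of all probe sets passed in either direction.

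Of 41 probe sets of the BAG family and of BAG3-assisted autophagy, 2 rose, none fell and 39 did not pass, with a median of 0.09; in limma 5 were higher and 1 lower at an unadjusted p under 0.05, where 9.86% of all probe sets had such a p. Both that rose were of SQSTM1 (p62), the cargo receptor that links ubiquitinated clients to the autophagosome. Its probe set 213112_s_at stood at 1.02 ± 0.15 (SE; limma adjusted p = 0.0303) and 201471_s_at at 0.64 ± 0.11 (limma adjusted p = 0.0498). The second lost its call with quantile normalization repeated, array median centring or cyclic loess (adjusted p = 0.0549, 0.0629 and 0.0535), and it passed in none of the fits without 1 array (0.0593 to 0.232). The first lost its call without ambient replicate 1, 2 or 3 or negative pressure replicate 1 or 2 (adjusted p = 0.0709 to 0.158). Further SQSTM1 probe sets, 239004_at, 244804_at and 242568_s_at, stood at 0.11, -0.08 and 0.05 with overlapping groups. Their means were 5.75, 4.16 and 2.67, against 6.94 on 213112_s_at and 9.78 on 201471_s_at. The other BAG genes, BAG1, BAG2, BAG4, BAG5 and BAG6, did not pass. With the replicate block 3 probe sets of the list were higher, where 2.27% of all probe sets passed in either direction. The added one was of DNAJB6, an HSP40-type co-chaperone (0.68, limma adjusted p = 0.0475 with the block).

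Of 59 probe sets of collagens and collagen-folding enzymes, the clients and partners of SERPINH1, 2 rose, none fell and 57 did not pass, with a median of 0.07; in limma 7 were higher and 2 lower at an unadjusted p under 0.05, where 9.86% of all probe sets had such a p. PLOD1, a lysyl hydroxylase, stood at 0.81 ± 0.12 (SE; limma adjusted p = 0.0337), and P4HA2, a catalytic subunit of prolyl 4-hydroxylase, at 0.70 ± 0.11 (limma adjusted p = 0.0397). P4HA2 did not pass with quantile normalization repeated (0.0593) or cyclic loess (0.0551), nor in any fit without 1 array (0.0679 to 0.209). These P4HA2 values are of 202733_at, with a mean of 8.42. Further P4HA2 probe sets, 1568611_at and 1555027_at, stood at 0.16 and 0.13 with overlapping groups and means of 6.20 and 2.47. PLOD1 did not pass without ambient replicate 1, 2 or 3 or negative pressure replicate 1 or 2 (adjusted p = 0.0664 to 0.196). COL1A1 and COL3A1 did not pass on any probe set without the replicate block. With it 4 probe sets of the list were higher and none lower, where 2.27% of all probe sets passed in either direction. The added ones were 202310_s_at of COL1A1 (0.60, limma adjusted p = 0.0494 with the block) and 207543_s_at of P4HA1 (0.66, limma adjusted p = 0.0197 with the block). P4HA1 is another catalytic subunit of prolyl 4-hydroxylase. The other P4HA1 probe set, 243335_at, stood at -0.20 with groups that did not overlap, at a mean of 1.57. The mean of 202310_s_at was 3.63, below the array medians. The other COL1A1 probe sets, from the brightest down, stood at -0.09, -0.01, 0.18 and -0.08.

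Of 17 probe sets of clusterin receptors and other extracellular chaperones, 1 fell, none rose and 16 did not pass, and limma gave 3 lower and 0 higher at an unadjusted p under 0.05, where 9.86% of all probe sets had such a p. All 3 were of 1 gene. The 1 that fell was a probe set of LRP8 (ApoER2), a receptor of the LDL receptor family that binds clusterin and apolipoprotein E. It went from 5.28, 5.34 and 4.74 to 4.07, 4.03 and 3.92 (-1.11 ± 0.17, SE; limma adjusted p = 0.0333), and the other LRP8 probe sets at an unadjusted p under 0.05 stood at -0.63 and -0.48. This call was lost without ambient replicate 1 or 2 or any 1 of the negative pressure arrays (adjusted p = 0.0593 to 0.19). With the replicate block a second LRP8 probe set, 205282_at, also passed (-0.63, limma adjusted p = 0.0247 with the block). In that fit 2.27% of all probe sets passed in either direction.

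None of the 16 probe sets of the kinases that act on HSPB1 passed in limma. At an unadjusted p under 0.05 in limma, 2 were higher and 1 lower, where 9.86% of all probe sets had such a p. The 2 were probe sets of the protein kinase D gene PRKD2 (0.38 and 0.35), and the 1 was of MAPKAPK3 (-0.35). A further PRKD2 probe set, 241669_x_at, stood at 0.05 ± 0.21, and the other of MAPKAPK3 at -0.08 ± 0.12. The p38 gene MAPK14 was listed, but no probe set named it alone. None of the 6 probe sets of the remaining small heat shock family passed in limma, and 0 had an unadjusted p under 0.05. The testis member HSPB9 stood at 0.23 ± 0.15, and the brightest probe set of IFT25, once named HSPB11, at -0.16 ± 0.12.

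**Figure D5:**
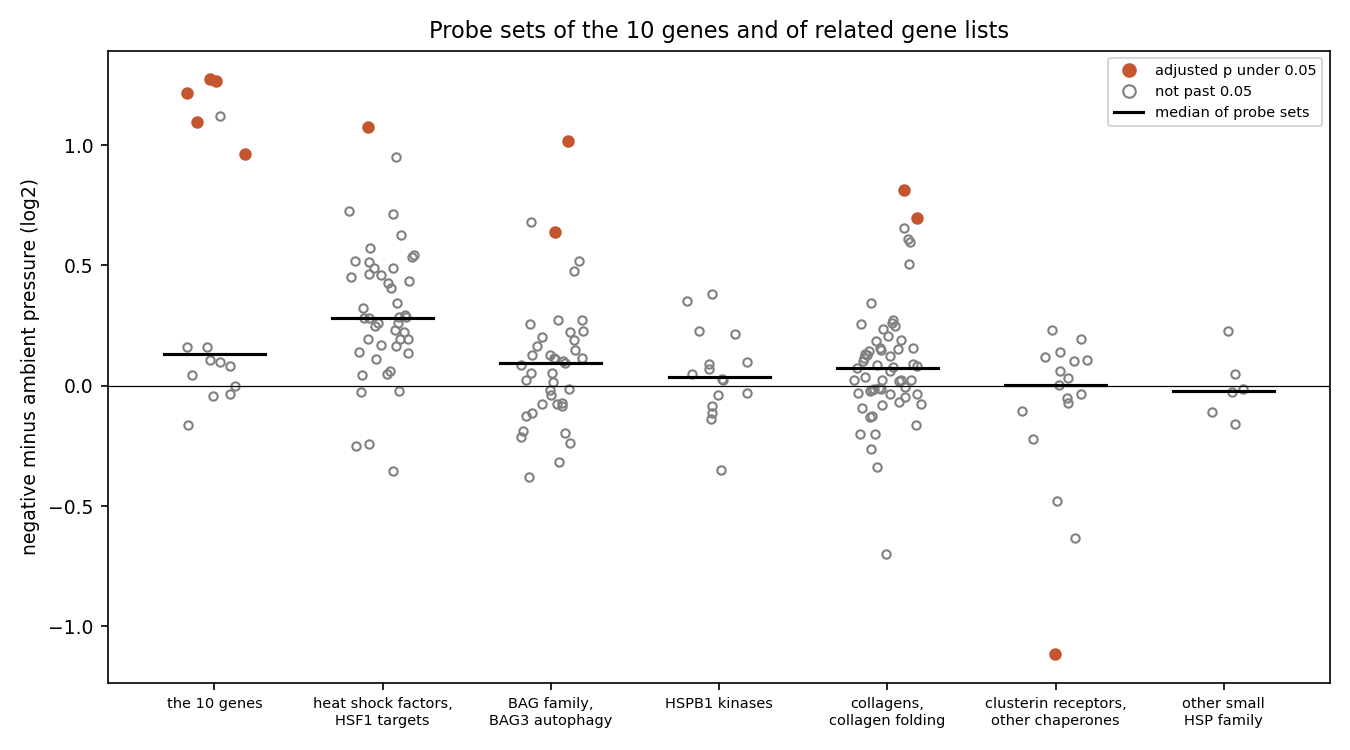
Negative minus ambient pressure (log2) of every probe set of the 10 genes and of 6 lists of related genes, with the median of each as a bar; orange marks an adjusted p under 0.05 over all probe sets. The heat shock list has a median of 0.28, the other lists lie between -0.02 and 0.09, and orange points outside the 10 genes number 5 above and 1 below 0.

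The genes most like HSPB1 and CLU were ranked by the root mean square difference of the log2 profiles over the 6 arrays, each centred on its own mean, among probe sets that name 1 gene and lie above the median mean. The nearest to HSPB1 was CLU, at 0.084, followed by HOXC13 (0.085), LOC105379499 (0.091), LAMP3 (0.092) and ATP5IF1 (0.093). Nearest to CLU was HSPB1, followed by DNAJA4 (0.11), an HSP40-type co-chaperone, HOXC13 (0.12), TNFSF10 (0.13) and ATP5IF1 (0.13). In the 10 listings the difference between the groups lay between 1.06 and 1.35. Profiles with a like difference between the groups lie close by this measure, and the genes were chosen on that difference. The nearness of HSPB1 and CLU is therefore no separate result. HSPB8 and SERPINH1 were in neither list of 5.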

How the data were processed

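Expression was measured on 6 Affymetrix arrays, 1 per HaCaT culture, and groups and replicate numbers came from the sample titles. The values the authors deposited are log2 values, 1 per probe set, and the submitters' processing notes name RMA and Affymetrix Expression Console 1.2 as the tools. No source used here gives batches or filters. Of 54675 probe sets, 62 controls were left out. The platform annotation names 1 gene for 41091, several for 1801 and none for 11721, and 41037 matched RefSeq by gene identifier. The members and lists were chosen with earlier results of these data known. Negative minus ambient pressure was fitted for every probe set with lmFit and eBayes of limma 3.58.1 (R 4.3.3), with Benjamini-Hochberg adjustment over all 54613 and a threshold of 0.05. Every adjusted p comes from this fit unless another is named. No filter was applied. The fit was tested on data simulated with independent noise on each array, where false calls were few and most doublings of signal missed the threshold. No offset of the replicate 3 arrays was simulated, so false calls under such an offset were not tested. Listed genes without a probe set naming them alone were not used here.

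The groups share replicate numbers. Deviations from the group means correlated across probe sets at 0.22, 0.23 and 0.47 between arrays of the same number, each over 0.1. The numbers were therefore read as pairs for the replicate block and for the differences within replicate numbers. Only these correlations give the pairing, and an offset of the replicate 3 arrays can raise all 3 values. The fit without the block did not use the pairing, and calls come from that fit unless another is named. The named probe sets were all those of the 10 genes, up to 4 genes past the threshold in each list (or the 2 with the smallest p), and the 5 nearest profiles. Promoter sequences are from RefSeq, build GRCh38.p14. Alternatives were the replicate block, other scalings, a filter on low means, trend and robust variance, array weights, 1 value per gene, an adjusted p of 0.10 and leaving out arrays.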

Additional observations from a re-analysis of the deposited data

How the results depend on the processing

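The 5 probe sets of HSPB1, HSPB8, CLU and SERPINH1 past the threshold kept their direction in every fit, and stayed past it with the replicate block, quantile normalization repeated, array median centring, cyclic loess, low means left out, trend and robust variance, array weights and without both replicate 3 arrays. Of the 10 genes, 4 passed with 1 probe set per gene and 3 with the probe sets of a gene averaged, HSPB8 being lost. Leaving out 1 array gave 0 to 5 members, 1 to 235 probe sets in all, 0 to 3 probe sets of the related lists and a member median of 0.102 to 0.308. As the groups of the 5 did not overlap, leaving out an array could not turn their direction, so that is no sign of stability. The fits without 1 array have fewer samples.

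Over all probe sets, 262 passed, against 1242 with the replicate block, 1516 with array weights, 600 without both replicate 3 arrays and 625 at an adjusted p of 0.10. Of the related lists 6 probe sets passed, 16 with the replicate block and 20 with array weights. Without both replicate 3 arrays the member median was 0.269, against 0.16. The share of higher calls was 57.6%, and 46.5% without both replicate 3 arrays, 48.5% with cyclic loess and 51.6% with quantile normalization repeated. No scaling moved the median of all probe sets by more than 0.1. Signals near the array median limit what can be shown for CRYAB, HSPB2, HSPB3, HSPB6 and HSPB7.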
